A study of Mus musculus with 8 samples.

Results

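Mbnl1 and Mbnl2 are the 2 Muscleblind genes examined here, through 44 of the 134407 ATAC-seq peaks measured in mouse embryonic stem cells. A peak was taken when its centre lay inside the gene as RefSeq places it on GRCm38.p6, or within 100 kb of it. This gave 8 peaks for Mbnl1, on chromosome 3 from 60472559 to 60629750, and 36 for Mbnl2, on chromosome 14 from 120275652 to 120431698. The pair was proposed because the peak with the largest rise among the stronger peaks of the whole table lies 32.8 kb upstream of Mbnl2. Every comparison of paused with control cells at these 2 genes is therefore a description, given with its replicate error. No p-value from the fits made here is printed for these peaks. Calls at an adjusted p threshold, and the authors' FDR where it is named, only label peaks within that description.

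Muscleblind proteins bind RNA through pairs of zinc fingers and decide whether exons are kept or skipped. They promote splicing patterns of differentiated tissues such as muscle and brain, and they are known to repress the splicing pattern of embryonic stem cells, in which their own levels are low. When they are trapped by expanded CUG repeats, as in myotonic dystrophy, fetal splice forms return. Mbnl1 and Mbnl2 overlap in function, and Mbnl2 is best known for its role in the brain.

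The cells were the wild-type E14 line, grown on gelatin in serum with LIF, a cytokine that maintains pluripotency. The 4 control samples had no inhibitor, and the 4 paused samples had INK128 at 200 nM for 24 h. INK128 inhibits mTOR, a kinase that drives growth, and brings the cells into a state resembling embryonic diapause. All 8 libraries came from a single cell line, with 50000 live cells in each. The labels do not say whether replicates were separate cultures, so that errors rest on the spread between these samples, which may be technical. ATAC-seq measures how often the Tn5 transposase cuts a stretch of chromatin, and so how open it is, and does not measure RNA.

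Values are reads per 201 bp peak divided by a factor per library, as deposited. The libraries held 4434037 to 21161767 reads in peaks, and control replicate 1 was the deepest. A change was called when limma-trend, fitted on log2(value + 1) over the 127402 peaks whose mean value reached 10, gave a Benjamini-Hochberg adjusted p under 0.05. The median change of all tested peaks was 0.10 on that log2 scale, and single changes are to be read against it. Of 8 embryonic stem cell marker genes, 6 had a peak within 1 kb of a gene end, and Pou5f1 and Dppa5a had none. A peak was also present at 5 of 7 fibroblast, 3 of 6 primitive endoderm and 5 of 6 trophoblast marker genes, so that an open gene end does not by itself mark a cell type here. The summed values of these gene-end peaks were 963 to 1053 in control and 1171 to 1324 in paused samples for the stem cell markers, and 244 to 294 and 324 to 347 for the trophoblast markers, without overlap. They were 428 to 535 and 514 to 566 for fibroblast and 237 to 283 and 261 to 303 for primitive endoderm markers, with overlap. The part of these differences in the results below was not tested.

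The sequences at the annotated start sites are shown first, because the genes differed there before any treatment was considered. RefSeq gives Mbnl1 an outer and an inner start, and Mbnl2 a single start, all on the forward strand. Each sequence below runs from 250 bases before the start to 50 after it, from the RefSeq table of GRCm38.p6. In the Mbnl1 sequences capitals mark matches to GGGCGG, the GC box bound by Sp and Klf factors. They also mark matches to the E-box bound by Myc and Tfe factors, whose letters are CACGTG. In the Mbnl2 sequence capitals mark the bases that lie inside an ATAC-seq peak.
Mbnl1 outer start, chr3:60472580-60472879: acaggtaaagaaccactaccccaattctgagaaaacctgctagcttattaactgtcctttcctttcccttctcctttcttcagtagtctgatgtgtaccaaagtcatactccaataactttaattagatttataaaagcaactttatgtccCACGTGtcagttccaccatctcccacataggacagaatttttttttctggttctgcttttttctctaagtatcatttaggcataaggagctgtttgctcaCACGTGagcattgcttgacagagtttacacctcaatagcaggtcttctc
Mbnl1 inner start, chr3:60500929-60501228: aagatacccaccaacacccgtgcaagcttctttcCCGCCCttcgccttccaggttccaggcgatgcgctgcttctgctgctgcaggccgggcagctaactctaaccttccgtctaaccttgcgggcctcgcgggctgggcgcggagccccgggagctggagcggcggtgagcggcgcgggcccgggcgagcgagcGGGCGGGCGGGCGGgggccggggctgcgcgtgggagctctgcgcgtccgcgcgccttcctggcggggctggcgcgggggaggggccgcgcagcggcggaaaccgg
Mbnl2 start, chr14:120275419-120275718: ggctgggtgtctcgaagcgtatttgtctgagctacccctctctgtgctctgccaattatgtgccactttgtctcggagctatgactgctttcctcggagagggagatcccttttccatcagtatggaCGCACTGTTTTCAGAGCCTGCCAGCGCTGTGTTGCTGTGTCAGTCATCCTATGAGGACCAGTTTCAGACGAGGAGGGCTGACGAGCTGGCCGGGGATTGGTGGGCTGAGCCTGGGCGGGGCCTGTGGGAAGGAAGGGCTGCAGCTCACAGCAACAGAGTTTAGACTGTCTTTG

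The inner Mbnl1 start is rich in CpG: it holds 41 CpG dinucleotides and 75.0% G or C, more CpG than 96.5% of the 32851 promoter sequences in the table. The outer start holds 2 CpG and 39.3% G or C. Mbnl2 lies between them with 10 CpG and 56.3%, against a median of 7 CpG and 52.7% over all promoters. On both strands, with overlapping matches counted, the inner Mbnl1 start had 4 GC boxes and no E-box. The outer start had 2 E-boxes and no GC box, and the Mbnl2 start had 1 GC box. The GC box was found in 35.7% of all promoter sequences and the E-box in 7.15%, and these matches are letters in a sequence, not shown binding.

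The open chromatin followed the inner start of Mbnl1. The nearest peak (chromosome 3, 60501483 to 60501683) was centred 404 bp past the inner start, and the outer start was 28.8 kb from any peak centre. At Mbnl2 the peak (chromosome 14, 120275546 to 120275746) covered the start, and it shared 173 of the 300 bases printed. The Mbnl2 start-site peak is also inside Gm52122, an annotated lncRNA gene that spans the first part of Mbnl2 on the same chromosome.

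Both genes cover nearly the same length, 157 kb for Mbnl1 and 156 kb for Mbnl2, yet they held different numbers of peaks. Inside their spans lay 7 peaks for Mbnl1 and 24 for Mbnl2. The median was 9 among the 450 protein-coding genes between 140 and 180 kb long, 89.1% of which had fewer peaks than Mbnl2 and 36.9% fewer than Mbnl1. All 8 Mbnl1 peaks have Mbnl1 as their nearest gene. Of the 36 Mbnl2 peaks, 31 have Mbnl2 as their nearest protein-coding gene and 5 are nearer to Rap2a, a gene of a small Ras-like GTPase that begins 46.8 kb past the end of Mbnl2. A further 6 peaks upstream of Mbnl2 lie inside or nearer to the lncRNA genes Gm52122 or Gm41250.

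**Figure D1:**
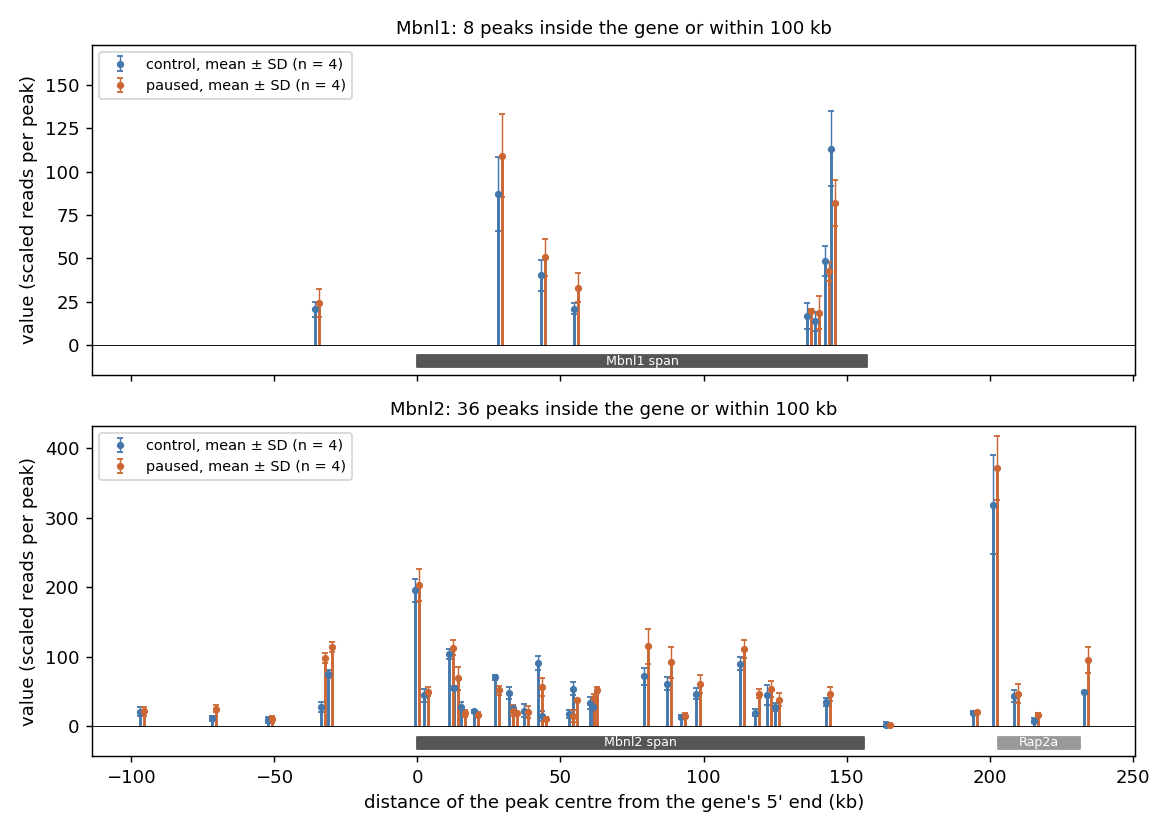
Deposited value (reads per peak divided by a factor per library) of each peak against the distance of its centre from the 5' end of Mbnl1 (top, 8 peaks) and Mbnl2 (bottom, 36 peaks); points are group means and bars the SD of 4 samples. The highest peak of the Mbnl2 region stands at Rap2a (319 in control cells), and inside Mbnl1 no peak lies between 55.5 and 136.7 kb.

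Called changes went in both directions in the Mbnl2 region, and 1 was found among the 8 Mbnl1 peaks. Of the 34 tested peaks of the Mbnl2 region, 8 were called higher in paused cells and 4 lower, and the median log2 change was 0.23. Of the 8 Mbnl1 peaks, all tested, 0 were called higher and 1 lower, with a median of 0.31. Over all tested peaks, 11.0% were called higher and 2.91% lower. That split moved with the scaling: edgeR with TMM called 7.13% upward and 5.54% downward, and the shares were 4.51% and 5.36% after scaling to total reads in peaks, where the Mbnl2 region had 8 and 4 and then 7 and 4. In the Mbnl2 region 9 peaks had every paused sample above every control sample, and 5 had every paused sample below. Such separation was found for 13.0% of all tested peaks upward and 4.36% downward, and for 0 of the 8 Mbnl1 peaks. In the authors' deposited table, 8 peaks of the Mbnl2 region have an FDR under 0.05 upward and 2 downward, against 9.19% and 1.80% of all its peaks, and no Mbnl1 peak has. The pair was chosen from this comparison, so nothing is read from these shares; 1 of the 8 calls is the peak that led to the choice, and neighbouring peaks are not independent.

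The 2 peaks that were not tested were weak. That 51.6 kb upstream of Mbnl2 had 4.78 to 14.7 in control and 6.92 to 17.1 in paused samples. That 8.49 kb past the end of Mbnl2 had at most 7.17 in control and 3.15 in paused samples, with 0 in 2 control samples and 1 paused sample.

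**Figure D2:**
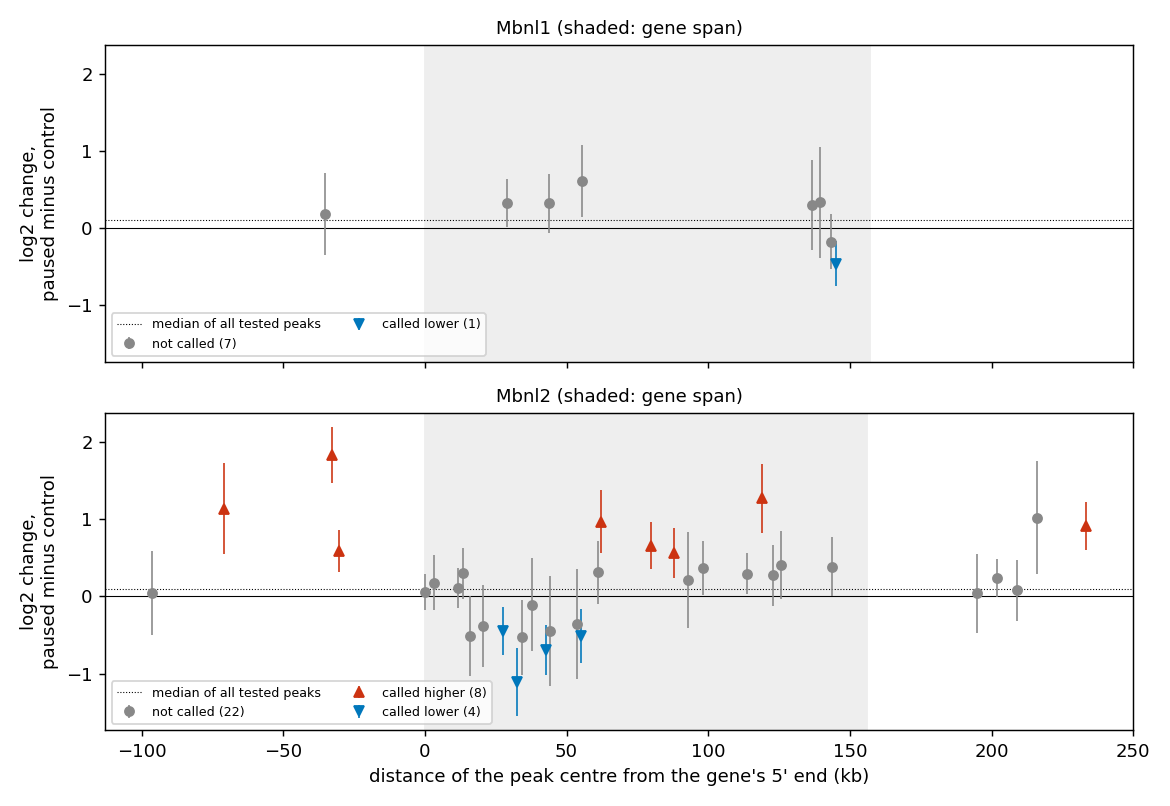
Log2 change (paused minus control, on log2(value + 1)) of each tested peak against its distance from the 5' end of Mbnl1 (top) and Mbnl2 (bottom), with 95% intervals from limma-trend; triangles are called peaks and the dotted line is the median of all peaks, 0.10. In Mbnl2 the changes are positive upstream, negative from 15.8 to 55.1 kb inside the gene, and positive again beyond. The called peak 32.8 kb upstream of Mbnl2 led to the choice of the pair, and its interval takes no account of that choice.

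The stretch upstream of Mbnl2 held 3 called peaks, all higher in paused cells. Those 32.8 and 30.3 kb upstream are nearer to the lncRNA gene Gm52122 than to Mbnl2, and that 71.0 kb upstream is nearer to Gm41250. The peak that led to the choice (chromosome 14, 120242759 to 120242959, 32.8 kb upstream) had values of 31.5, 26.3, 35.6 and 17.6 in control replicates 1 to 4. In paused replicates 1 to 4 it had 89.98, 94.6, 105.5 and 103.1. The lowest paused sample was thus 2.53 times the highest control sample, and the means differed 3.54-fold. Its values rest on 12 to 91 reads in control and 60 to 88 reads in paused libraries.

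Its neighbour (120245218 to 120245418, 30.3 kb upstream) was more open in control cells and changed less. It had 66.0, 78.8, 79.6 and 76.4 in control and 115, 109, 123 and 107 in paused samples, without overlap, and a 1.51-fold difference of means (log2 change 0.59, SE 0.13). In control cells this peak was the higher of the pair, at 75.2 against 27.7, and in paused cells they were at 113 and 98.3. The peak 71.0 kb upstream (120204515 to 120204715) was weak, at 15.6, 7.17, 13.6 and 8.82 in control and 20.8, 31.6, 27.9 and 21.1 in paused samples. The groups did not overlap there, and the log2 change was 1.14 (SE 0.29). The call at 71.0 kb was lost in DESeq2, and that at 30.3 kb after loess correction.

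At the Mbnl2 start itself the groups overlapped. Among peaks whose nearest protein-coding gene is Mbnl2, the start-site peak was the strongest, above 94.3% of all peaks. It had 193, 183, 188 and 219 in control and 181, 188, 231 and 214 in paused samples. The means were 196 ± 16.1 and 204 ± 23.4 (SD, n = 4 each), and the log2 change was 0.05, with a 95% interval from -0.18 to 0.29. Its sign turned under other scalings, with values down to -0.15. The rises and falls around the gene were therefore found without a called change at its annotated start.

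**Figure D3:**
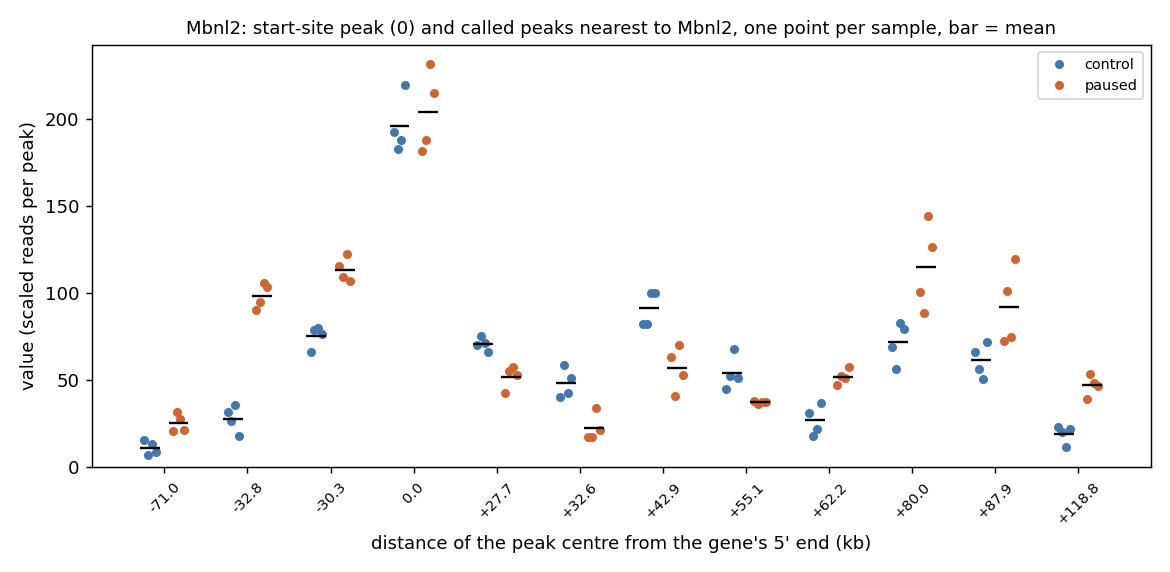
Deposited value in each of the 8 samples (points, with bars for group means) for the start-site peak of Mbnl2, at 0, and the 11 called peaks whose nearest protein-coding gene is Mbnl2. Peaks are ordered by distance of the peak centre from the 5' end in kb. Control and paused points overlap at the start-site peak, and are apart at each of the 11 called peaks. The called peaks include the peak that led to the choice of the pair.

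The falls lay in the first part of the gene. Read along the gene from its start, the first 4 peaks had small positive changes, from 0.05 to 0.30. The next 10 peaks, from 15.8 to 55.1 kb, all had negative changes, from -0.11 to -1.11 with a median of -0.48, and 4 of them were called lower. The last 11 peaks, from 61.0 to 143.5 kb, all had positive changes, from 0.22 to 1.28 with a median of 0.39, and 4 of them were called higher. These stretches were marked off after the values were seen, and carry no test. The signs of the 10 and of the 11 peaks held under each scaling tried. Of the first 4 peaks, 2 kept their sign in edgeR with TMM, after scaling to total reads and after loess correction, and 3 in DESeq2, after TMM rescaling and without paused replicate 3. Among the 10, 1 sign turned when control replicate 3, control replicate 4, paused replicate 2 or paused replicate 4 was left out.

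The largest fall was at the peak 32.6 kb inside the gene (120308202 to 120308402). It had 40.5, 58.5, 42.3 and 51.4 in control and 17.3, 17.4, 34.1 and 21.1 in paused samples, and its mean fell to 0.466 of the control level (log2 change -1.11, SE 0.22). All paused samples were below all control samples, with paused replicate 3 the nearest to them. At 42.9 kb (120318426 to 120318626) the values were 81.9, 82.4, 99.9 and 99.9 in control and 63.5, 41.0, 69.8 and 52.7 in paused samples (log2 change -0.69, SE 0.16), again without overlap.

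The other called falls were smaller. At 27.7 kb (120303245 to 120303445) the control samples had 70.2, 75.2, 71.1 and 66.1 and the paused samples 42.7, 55.2, 57.4 and 52.7 (log2 change -0.44, SE 0.15). At 55.1 kb (120330658 to 120330858) the control samples had 44.9, 52.6, 67.7 and 51.4 and the paused samples 38.1, 36.3, 37.2 and 37.5 (log2 change -0.51, SE 0.18). Neither had overlapping groups, but both calls were near the threshold, and leaving out 1 sample ended each call in 7 of 8 cases. With 1 sample left out, the call at 27.7 kb held only without paused replicate 3 and that at 55.1 kb only without control replicate 1. In fits to all 8 samples, the call at 27.7 kb was lost in DESeq2 and without the filter on weak peaks. That at 55.1 kb was lost in DESeq2 and in edgeR with the deposited factors. The authors' deposited FDR was 0.078 and 0.124 for these 2 peaks. A peak at 34.3 kb also had all paused samples (15.5 to 20.5) below all control samples (23.5 to 30.5), with a log2 change of -0.53 that was not called. Of the 10 peaks in the stretch, those up to 44.2 kb lie inside the lncRNA gene Gm52122 as well as Mbnl2, and reads from the 2 genes' chromatin cannot be told apart.

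Farther along, 4 peaks inside Mbnl2 rose. The largest rise was at 118.8 kb (120394400 to 120394600), from 22.8, 20.3, 11.9 and 22.0 in control to 39.2, 53.6, 48.1 and 46.9 in paused samples, a 2.44-fold difference of means (log2 change 1.28, SE 0.22). At 62.2 kb (120337767 to 120337967) the values went from 31.1, 17.9, 22.0 and 36.7 to 47.3, 52.1, 51.2 and 57.4 (log2 change 0.97, SE 0.20). In both cases every paused sample was above every control sample. This last peak was 7.11 kb from the nearest called fall.

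The other 2 rises lay between these in position. The peak at 80.0 kb (120355524 to 120355724) had 68.8, 56.1, 83.0 and 79.4 in control and 100.4, 88.3, 144 and 127 in paused samples (log2 change 0.66, SE 0.15). The peak at 87.9 kb (120363421 to 120363621), also inside the lncRNA gene Gm26679, had 66.0, 56.1, 50.8 and 72.0 in control and 72.7, 101, 74.5 and 119.5 in paused samples (log2 change 0.56, SE 0.16). At 87.9 kb the lowest paused value was only just above the highest control value, and the call was lost in 7 of 18 other fits. The 7 peaks of this stretch that were not called had log2 changes from 0.22 to 0.41.

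Summed over 4 equal lengths of the gene, here parts 1 to 4, the opposite directions partly cancelled. The 9 peaks of part 1 summed to 420 ± 20.5 in control samples and 380.4 ± 32.8 in paused ones (SD, n = 4 each, as for all sums here), and the 6 of part 2 to 237 ± 22.1 and 212 ± 13.7. In both parts the groups overlapped. The 5 peaks of part 3 summed to 283 ± 16.3 and 394 ± 53.2, and the 4 of part 4 to 128 ± 6.50 and 186 ± 29.5, without overlap. The 6 upstream peaks, the start-site peak included, summed to 339 ± 21.2 and 472 ± 44.1, also without overlap. That upstream sum includes the peak that led to the choice, whose own mean went from 27.7 to 98.3, so nothing is read from its separation. Over all 24 peaks in the span the sum was 1069 ± 36.1 in control and 1172 ± 101 in paused samples, 9.70% more, and the groups overlapped. These sums scale with the authors' factors and were not tested.

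**Figure D4:**
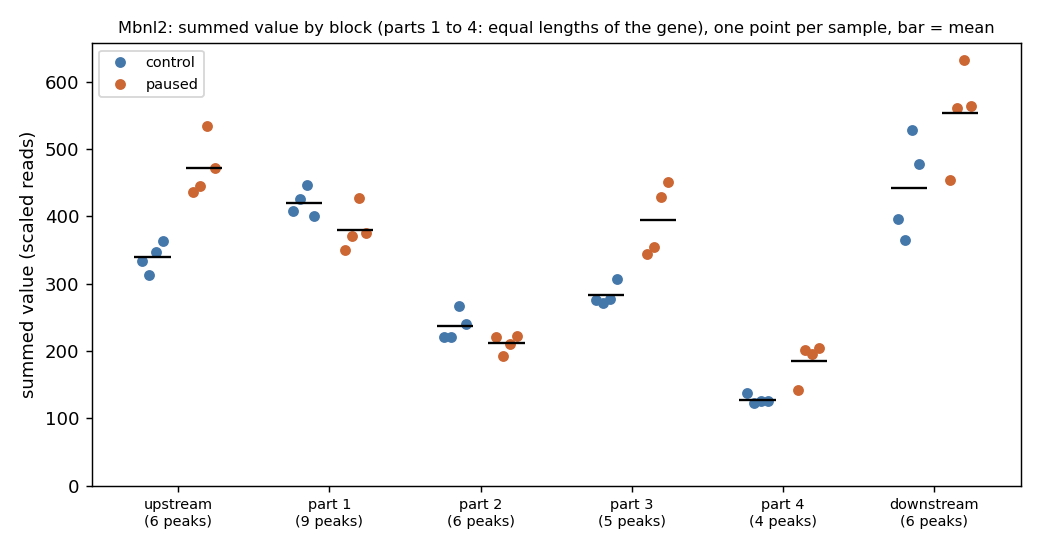
Summed deposited value of the peaks in each block of the Mbnl2 region (100 kb upstream, 4 equal parts of the gene span, 100 kb downstream) in each of the 8 samples; bars are group means. Paused samples are all above control samples upstream and in parts 3 and 4, and the groups overlap in parts 1 and 2 and downstream. The upstream sum includes the peak that led to the choice of the pair.

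Of the 6 peaks past the end of Mbnl2, 5 are nearer to Rap2a. The strongest peak of the whole region (120477471 to 120477671), 45.9 kb past Mbnl2 and next to the start of the Rap2a span, had 274, 248, 403 and 351 in control and 321, 364, 433 and 371 in paused samples. The groups overlapped, and its log2 change of 0.24 (SE 0.12) was not called. The peak just past the far end of Rap2a (120509068 to 120509268) rose from 49.1, 47.8, 50.8 and 49.96 to 70.4, 93.1, 113 and 105.4 (log2 change 0.92, SE 0.15). A weak peak inside Rap2a (120491617 to 120491817) had 10.7, 10.8, 3.39 and 7.35 in control and 12.7, 17.4, 18.6 and 16.4 in paused samples, without overlap, and its log2 change of 1.02 was not called. It was called without the filter on weak peaks, after loess correction, with the replicate number as a block and without control replicate 2. The peak past Rap2a is the last inside the limit of 100 kb, 77.5 kb from Mbnl2, and the next one outside, at 153 kb, had 23.0 in control and 36.5 in paused samples on average (log2 change 0.65, not called). On the upstream side the last peak inside the limit, at 96.3 kb, and the first outside, at 120 kb, had means of 20.7 and 28.4 in control against 21.4 and 27.8 in paused samples. Their log2 changes, 0.05 and -0.03, turned sign under other settings.

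In Mbnl1 the peaks near the inner start had higher means in paused cells and those near the far end did not share a direction. The peak 404 bp past the inner start, the strongest of the 8, had 75.4, 119, 76.2 and 77.9 in control and 123, 85.2, 135 and 93.7 in paused samples. The groups overlapped because of control replicate 2, and the log2 change of 0.33 (SE 0.16) was not called. Without that replicate the change was 0.48 and was called. The peaks 43.9 kb (60516369 to 60516569) and 55.5 kb (60527931 to 60528131) from the 5' end of the gene had log2 changes of 0.32 (SE 0.19) and 0.62 (SE 0.23), neither called. At 55.5 kb the control samples had 25.6, 20.3, 20.3 and 17.6 and the paused samples 41.5, 25.2, 38.8 and 26.95, which overlapped only through control replicate 1 and paused replicate 2. Without paused replicate 2 the change there was 0.73 and was called, and it was also called with the replicate number as a block.

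The only called change of Mbnl1 was a fall near its far end, 145.2 kb from the 5' end (60617672 to 60617872). This peak had 91.3, 137, 99.9 and 125 in control and 71.5, 74.1, 101 and 80.8 in paused samples, or 113 ± 21.4 against 81.8 ± 13.3 (SD, n = 4 each; log2 change -0.46, SE 0.15). Paused replicate 3 lay above 2 control samples. The call was lost when control replicate 2 or 4 or paused replicate 1, 2 or 4 was left out, and it held under all 10 other fits to the 8 samples. The other 3 peaks between 136.7 and 143.3 kb had log2 changes of 0.30, 0.34 and -0.17, and no peak lay between 55.5 and 136.7 kb.

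**Figure D5:**
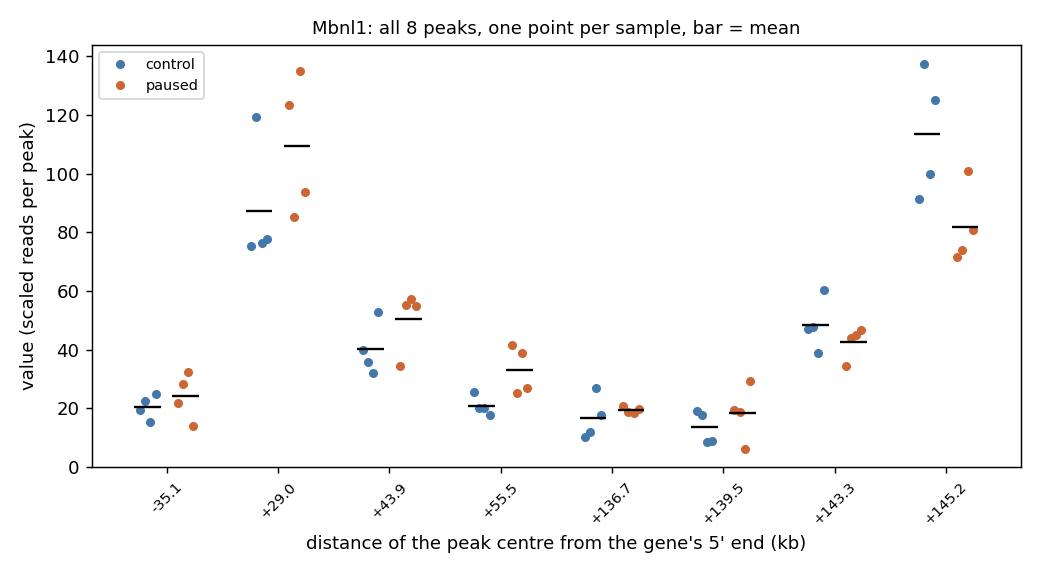
Deposited value in each of the 8 samples (points; bars are group means) for the 8 Mbnl1 peaks, ordered by distance of the peak centre from the 5' end in kb. Control and paused points overlap at every peak, including the called one at 145.2 kb, and control replicate 2 stands apart at 29.0 kb.

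Upstream of Mbnl1 there was 1 peak, 35.1 kb away, with means of 20.6 in control and 24.2 in paused samples (log2 change 0.19, SE 0.26), and it is the only one inside the limit outside the gene. The nearest peaks beyond the limit were 126 kb upstream and 168 kb downstream, with log2 changes of -0.43 and 0.40 that were not called. Summed over its 8 peaks, the Mbnl1 region went from 361 ± 45.6 in control samples to 380 ± 37.3 in paused ones (SD, n = 4 each), and the difference was smaller than either SD. The difference between Mbnl1 and Mbnl2 in their response was not tested.

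The gene-end peaks whose values ran most like those of each gene over the 8 samples were then listed, as a description. For the Mbnl1 peak at the inner start, the strongest inside the gene, Pearson's r of log2(value + 1) was highest with the gene-end peaks of Ilkap (0.990), Mcm9 (0.986) and Otulin (0.981). For the Mbnl2 start-site peak it was highest with Scel (0.983), Nap1l3 (0.979) and Gemin8 (0.975). There were 13342 genes to choose from for Mbnl1, of which 250 had an r above 0.9, and 13341 for Mbnl2, with 29. The points share library depth and treatment, and among so many genes high values arise from 8 samples without any link.

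The third Muscleblind gene, Mbnl3 on the X chromosome, had 4 peaks within 100 kb, 3 of them tested and none called, with log2 changes from 0.08 to 0.38. CELF proteins, which often act on the same exons in the opposite direction, were grouped with it. Of 91 tested peaks nearest to Mbnl3 and the 6 Celf genes, 9 (9.89%) were called higher and 7 (7.69%) lower, beside 11.0% and 2.91% of all tested peaks. Of these, 4 higher and 3 lower were among the 42 tested peaks of Celf4 and 4 higher and 1 lower among the 18 of Celf2. Inside Celf4, the peak at 25510240 to 25510440 of chromosome 18 averaged 48.0 ± 12.7 in control and 19.6 ± 7.48 in paused samples. Another, at 25577378 to 25577578, averaged 49.3 ± 2.47 and 84.98 ± 12.6 (all SDs over 4 samples). Their log2 changes were -1.29 and 0.76. Both were picked from called peaks for the size of their change, so no p-value is given. Celf4 thus had rises and falls within a single gene, as Mbnl2 did.

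Of 486 tested peaks at 26 other tissue-restricted splicing regulators, 45 (9.26%) were called higher and 9 (1.85%) lower, both shares below those of all tested peaks. Of the rises, 11 were among 44 tested peaks of Rbfox3 and 8 among 41 of Rbfox1, the genes with the most rises in this list. Both encode neuronal splicing factors, but others of this kind had 0 rises: Nova2 (12 tested peaks), Elavl4 (13), Elavl3 (9) and Nova1 (2). Elavl2 and Srrm4 had 2 rises each, of 19 and 20 tested peaks, and Rbfox2 had 0 rises and 1 fall of 29. Inside Rbfox1 a peak on chromosome 16 (6284323 to 6284523) rose from 39.3 ± 3.32 to 91.4 ± 8.78, and inside Ptbp3 a peak on chromosome 4 (59536384 to 59536584) rose from 27.3 ± 0.652 to 59.9 ± 1.40 (SD, n = 4 each; log2 changes 1.20 and 1.11). Of the 31 tested peaks nearest to Rbm20, a heart splicing regulator, 2 rose and 2 fell. The falls were inside the gene on chromosome 19, from 48.8 ± 3.18 to 31.3 ± 8.15 (53740916 to 53741116) and from 63.5 ± 18.2 to 40.8 ± 1.69 (53731943 to 53732143; SD, n = 4 each). The 24 SR protein and hnRNP genes, general splicing factors, had 147 tested peaks with 10 (6.80%) called higher and 6 (4.08%) lower, against 11.0% and 2.91% of all. A peak 7.25 kb from Srsf1 (chromosome 11, 88039149 to 88039349) rose from 34.5 ± 4.26 to 60.6 ± 2.36, and a peak inside Hnrnpd (chromosome 5, 99959231 to 99959431) from 38.2 ± 8.82 to 57.8 ± 1.47 (SD, n = 4 each; log2 changes 0.80 and 0.61). A peak 381 bp from Hnrnpa3 (chromosome 2, 75669688 to 75669888) fell from 140 ± 26.6 to 90.1 ± 7.91 (SD, n = 4 each; log2 change -0.61).

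Genes known to carry exons controlled by Muscleblind proteins had 167 tested peaks, of which 14 (8.38%) were called higher and 9 (5.39%) lower, beside the 11.0% and 2.91% of all. They include Foxp1, whose stem cell exon Muscleblind proteins repress, with 4 of 46 tested peaks called higher and 1 lower. The fall inside Foxp1 (chromosome 6, 98949964 to 98950164) was from 73.8 ± 7.92 to 46.0 ± 7.998, and inside Mapt, the tau gene, a peak (chromosome 11, 104322221 to 104322421) fell from 76.9 ± 4.70 to 47.3 ± 2.78 (SD, n = 4 each). A peak 4.94 kb from Tnnt2, a troponin gene (chromosome 1, 135857106 to 135857306), rose from 28.4 ± 8.55 to 52.3 ± 12.9 (SD, n = 4 each; log2 change 0.88).

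Over all 70 listed genes, 78 of 891 tested peaks (8.75%) were called higher and 31 (3.48%) lower, beside the 11.0% and 2.91% of all tested peaks, and their median log2 change was 0.05 beside 0.10. The median was 0.11 for Mbnl3 and the Celf genes, 0.09 for the tissue-restricted regulators, -0.02 for SR protein and hnRNP genes and -0.01 for genes with Muscleblind-controlled exons. These lists were described and not tested as sets. The direction of the calls moved with the scaling: edgeR with TMM gave 50 rises and 58 falls.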

How the data were processed

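ATAC-seq of 4 control and 4 paused libraries used 150 bp reads from both fragment ends, per the labels' protocols. Bowtie2 2.4.1, MACS3 3.0.3, DiffBind 3.16.0, Trim Galore, FastQC and the build mm10 are named in the submitters' processing notes, without settings; read filters and the handling of the Tn5 offset are not given in the sources used here. The deposited value of a peak in a sample is a signal: its reads over a factor of that sample, since 100% of values were whole multiples of 1 step (tolerance 0.006). The deposited log2 columns hold group means and the fold of the authors' own comparison, and the deposited p-value and FDR columns were used only where the authors' table is named. No per-sample column was left unused (0 columns).

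Coordinates are read as GRCm38: a peak centre lay within 1 kb of 41.7% of gene ends, and of 17.8% when peaks were shifted by 50000 bp. The gene and promoter tables come from RefSeq; strands were taken from the promoter table, and exons and introns were not analysed here. The nearest gene is that with the least distance to its span, and in the lists only protein-coding genes were considered.

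The members, gene lists and tests were chosen with earlier results of these data known. The unit was not raw counts, which led to limma-trend (limma 3.58.1, R 4.3.3) on log2(value + 1), which understates changes of weak peaks. edgeR 4.0.16 and DESeq2 1.42.0 on recovered reads, other scalings, filters and pseudocounts, a replicate block and leaving out each sample were alternatives. On recovered reads edgeR with TMM called 16142 peaks and with the deposited factors 21045. The fits were tested on simulated data first. Peaks were named if called, within 1 kb of a gene end, strongest in their region or next to the 100 kb limit, and peaks of special position or without overlap were added after their values were seen. In the lists, named peaks came from the 2 largest rises and falls per list of called peaks at or above the median strength. A peak that this rule names in the lists is not reported here. Depth was 4434037 to 21161767 reads in peaks; 3 reads, the most that a count of 0 allows, are a value of 1.04 in control replicate 1 and 5.08 in control replicate 3, for counting error only.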

Additional observations from a re-analysis of the deposited data

Results flagged for a closer look

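In 84 groups of 4 values (the named peaks and the summed values of each gene span and region, in each condition), 3 held a sample that stood apart from the rest by more than Dixon's 95% critical value for the gap relative to the range; chance gives this for about 1 group in 20. At the inner start of Mbnl1, control replicate 2 had 119 against 75.4 to 77.9 in the other control samples. At the Celf2 peak on chromosome 2 (6594158 to 6594358), control replicate 4 had 94.1 against 63.3 to 67.4. At the Rbm20 peak on chromosome 19 (53740916 to 53741116), paused replicate 3 had 43.4 against 25.8 to 28.4.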

How the results depend on the processing

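Against 8 rises and 4 falls in the Mbnl2 region, a filter at a mean value of 50, which tests fewer peaks, left 5 and 2, DESeq2 gave 6 and 2, a region limit of 50 kb 6 and 4, and the other fits to 8 samples 7 to 9 and 3 to 4. The replicate block called 1 rise in Mbnl1, at 55.5 kb, and 1 more in the Mbnl2 region, inside Rap2a, and ended no call there; in the listed genes it gave 96 rises and 38 falls. The samples share only a number: same-numbered samples had correlations of deviations from 0.0358 to 0.133, others from -0.10 to 0.0703, and 6 of the 8 samples correlated best with their own number, a hint from the data and not from the design. Leaving out 1 sample gave 0 to 1 rises and 0 to 1 falls for Mbnl1, 7 to 9 and 2 to 3 for Mbnl2, and 54 to 78 and 17 to 28 in the listed genes. The Mbnl2 falls were 3 without control replicate 1 or paused replicate 3 and 2 without any other sample, those at 32.6 and 42.9 kb. The falls in the listed genes were 19, 20 and 17 without control replicates 1, 3 and 4. The peak 32.8 kb upstream of Mbnl2 had log2 changes from 1.64 to 1.96 over the fits. It led to the choice of the pair by its rise, so nothing is read from its calls. In the listed genes, against 78 rises and 31 falls, the counts were 50 and 58 in edgeR with TMM, 26 and 16 in DESeq2, 42 and 42 after TMM rescaling, 32 and 50 after scaling to total reads, 38 and 39 after loess correction, and 57 and 10 with the higher filter. Over all peaks, against 13958 and 3702, edgeR with TMM called 9084 and 7058, DESeq2 3902 and 1892 and scaling to total reads 5743 and 6827, where the median change of all peaks moved from 0.10 to -0.05. The log2 change of the Mbnl2 start-site peak reversed to -0.0487 in edgeR with TMM, -0.0489 in DESeq2, -0.0473 after TMM rescaling, -0.10 with total reads and -0.15 after loess correction, and was -0.0087 to 0.11 with 1 sample left out. The peak 96.3 kb upstream reversed to -0.0108 in DESeq2, -0.0494 after TMM rescaling and -0.10 with total reads, and was -0.14 to 0.22 with 1 sample left out. The peak at 120 kb reversed to 0.0485 in edgeR with the deposited factors, and was -0.11 to 0.0788 with 1 sample left out. The causes were not tested. Weak peaks are limited most by control replicate 3, with 4434037 reads in peaks.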
